A study of Mus musculus with 140 samples.

Results

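Genes of fatty acid uptake and mitochondrial beta-oxidation were followed in mouse calf muscle after 1 h of treadmill running. The set was a list of 34 gene symbols that cover entry of fatty acids into the fibre, the lipid droplet, activation and transport into mitochondria, the oxidation spiral, its auxiliary enzymes, electron transfer and the nuclear receptors that control them. Of these, 33 were found by their Ensembl identifier in GRCm38 among the 11461 genes listed in every library. Cpt1b, the muscle carnitine palmitoyltransferase of the outer mitochondrial membrane, was not analysed here. All 33 entered each main test, with no filter on low values.

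Gastrocnemius muscle came from male C57B6/J mice of 10 to 11 weeks on a standard diet, with no genetic change labelled in any group. Mice ran for 1 h, or stood for 1 h on a stationary treadmill as sham controls, starting at ZT3 in the early rest phase or at ZT15 in the early active phase, where ZT0 is lights on and ZT12 lights off. Tissue was collected directly after the treadmill (0 h) or 4, 8, 12, 16 or 20 h later, which gives 24 groups of phase, treatment and hour. The labels list 140 samples, of which 3 were not analysed here, with 6 libraries in 18 groups, 5 in 5 groups and 4 in the group that ran in the rest phase and was taken at 0 h. The labels do not say whether each library is a separate animal, so p-values measure the spread between these libraries.

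Library depth, recovered from the deposited values, ran from 2.19 M to 27.6 M reads (median 11.0 M). In the shallowest case a member had 4 reads (Lipe) and in the deepest 14377 (Crat). The tissue label was met by the muscle markers Acta1, Ckm, Mb, Des and Ttn, each above 830 in every library, with none of 5 at 0. The fast fibre gene Myh4 had a median value of 13095, against 46.7 for the slow fibre gene Myh7. Of 9 fast fibre markers Tnnc2 was far lower, with a median of 6.54, and the others ran from 422 (Myh2) to 33945 (Mylpf). Medians of 8 slow fibre markers ran from 46.7 to 246 (Myl2). Of 8 adipocyte markers 7 were measured, and none was at 0 in any library (Adipoq 4.497 to 87.2). A transcript-length slope was computed for each library as the slope of log2 deviation on log2 exon length over protein-coding genes. The lowest slope was -0.29 and the highest 0.41, in log2 units per 2-fold longer exon length, and 6 libraries had a median correlation with their own group under 0.9. Exon length here is that of all annotated exons of a gene, which can exceed the transcript present in muscle.

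Fatty acids reach the fibre from circulating triglyceride split by lipoprotein lipase, or from the fibre's own lipid droplets, and enter through CD36 and fatty acid transport proteins. They are joined to coenzyme A, passed across the mitochondrial membranes as carnitine esters, and shortened in cycles of dehydrogenation, hydration, a second oxidation and thiolysis. Electrons of the first step leave through electron transfer flavoprotein and its dehydrogenase. PPAR alpha and PPAR delta are nuclear receptors activated by fatty acids, and many enzymes of the pathway are known PPAR targets.

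Promoter windows from 250 bases before to 50 after the start of transcription were taken from RefSeq in build GRCm38.p6, where 28 of the 33 genes had at least 1 window and 33 windows were found in all. The window of Plin5 is shown because Plin5 alone passed the main test of exercise averaged over hours. That of Cd36 is shown because it had the smallest p for a daily rhythm in sham mice over both arms. That of Hadhb is shown because it lies head to head with Hadha, whose product is its partner in one enzyme complex. Capitals mark AGGTCA, the half-site bound by PPAR and other nuclear receptors, searched on both strands. The Plin5 window is chr17:56117499-56117798 on the minus strand, and the match starts at base 81, 170 bases before the start. The Cd36 window is chr5:17835847-17836146 on the minus strand, with a match at base 23 that reads TGACCT because it lies on the other strand. The Hadhb window is chr5:30155003-30155302 on the plus strand and holds no match.
Plin5: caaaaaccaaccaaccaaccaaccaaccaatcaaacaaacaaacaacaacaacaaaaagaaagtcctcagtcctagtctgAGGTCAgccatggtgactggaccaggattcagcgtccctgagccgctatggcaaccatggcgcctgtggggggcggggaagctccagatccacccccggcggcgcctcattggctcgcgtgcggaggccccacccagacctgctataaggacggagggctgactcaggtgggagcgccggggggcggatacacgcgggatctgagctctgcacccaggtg
Cd36: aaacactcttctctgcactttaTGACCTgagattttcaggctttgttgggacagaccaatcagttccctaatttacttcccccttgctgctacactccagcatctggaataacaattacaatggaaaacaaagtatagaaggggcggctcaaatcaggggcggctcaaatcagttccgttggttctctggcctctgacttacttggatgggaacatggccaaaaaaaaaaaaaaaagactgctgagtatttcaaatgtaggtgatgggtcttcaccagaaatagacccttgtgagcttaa
Hadhb: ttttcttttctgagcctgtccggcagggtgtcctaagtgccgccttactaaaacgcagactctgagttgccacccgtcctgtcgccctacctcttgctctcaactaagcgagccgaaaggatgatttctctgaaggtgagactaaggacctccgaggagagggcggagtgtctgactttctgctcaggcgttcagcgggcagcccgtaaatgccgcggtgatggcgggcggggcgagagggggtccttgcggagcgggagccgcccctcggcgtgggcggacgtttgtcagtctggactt
AGGTCA was found in 7 of the 33 windows, of 6 genes (Acadm, Acadvl, Cd36, Echs1, Plin2 and Plin5), and in 16.26% of 32851 windows of all genes. The E-box CACGTG, which clock proteins can bind, was found in 3 of the 33 (Lipe, Plin2 and Slc27a1) and in 7.15% of all windows. A match describes letters in a window and not a bound site.

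Levels are the deposited values, read counts divided by a scaled library size in M (mega), and differences are on the scale of log2(value + 0.5), exercised minus sham, with their standard error (SE). Per kb of annotated exon, the mean level over all libraries was highest for Fabp3, the heart-type fatty acid binding protein, at 301 per kb, followed by the thioesterase gene Acot13 at 264 and Ech1 at 95.96. Cd36 stood at 67.1 per kb, Acadm at 51.99 and Plin5 at 6.41. The receptors were lowest with Lipe (hormone-sensitive lipase, 1.203 per kb), Ppara at 1.71 and Ppard at 0.59.

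Plin5 was the 1 member that passed a main test of exercise against sham. It passed only as an average over hours, in a contrast added after the hourly values had been seen. Its product, perilipin 5, coats lipid droplets and tethers them to mitochondria in oxidative tissue. At 8 h in the rest phase the 5 sham libraries had values of 8.11, 8.70, 9.24, 10.48 and 12.0, and the 6 exercised libraries ran from 8.63 through a median of 20.5 to 29.5. In the active phase the 6 sham libraries at 8 h ran from 5.93 through 11.0 to 17.5, and the 5 exercised libraries had values of 13.2, 13.7, 23.8, 27.3 and 33.6. In both phases the groups overlapped, with 4 of 6 and 3 of 5 exercised libraries above every sham library of the same hour. The mean went from 9.70 ± 1.53 (SD, n = 5) to 18.5 ± 7.93 (n = 6) in the rest phase and from 11.2 ± 4.31 (n = 6) to 22.3 ± 8.80 (n = 5) in the active phase.

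At later hours the exercised libraries were again mostly the higher ones. In the rest phase the median Plin5 value in sham and then exercised mice was 10.0 and 15.8 at 12 h, 8.81 and 14.1 at 16 h, and 7.45 and 15.6 at 20 h. In the active phase it was 11.4 and 17.2 at 12 h, 11.3 and 19.4 at 16 h, and 14.4 and 18.6 at 20 h. Full ranges overlapped in each of these groups, for example 6.66 to 25.3 in sham against 9.60 to 24.4 in exercised mice at 20 h in the rest phase. Directly after the treadmill these medians were 8.17 and 9.26 in rest-phase mice, and 6.32 and 10.3 in active-phase mice. At 4 h they were 11.6 and 14.5 in rest-phase mice and 10.0 and 10.4 in active-phase mice, whose exercised values (9.13 to 13.2) lay inside the sham range (8.13 to 15.1).

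**Figure D1:**
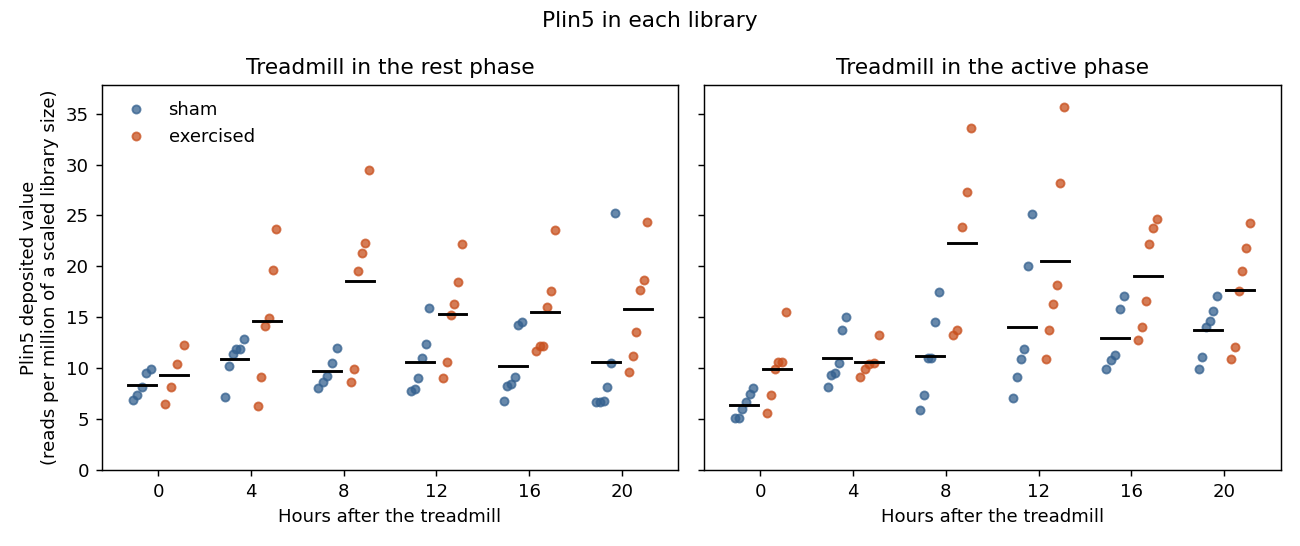
Plin5 deposited value (reads relative to a scaled library size) against hours after the treadmill, with 1 point per library in sham (blue) and exercised (orange) mice and a black line at each group mean. At 8 h the exercised means of 18.5 and 22.3 stood above the sham means of 9.70 and 11.2, with overlap of single libraries.

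No single hour passed the test over all genes for Plin5. The largest differences were 0.96 ± 0.28 at 8 h in the active phase (limma adjusted p = 0.202) and, for the same hour of rest-phase mice, 0.79 ± 0.28 (adjusted p = 0.9998). The difference was above 0 in 11 of 12 contrasts, the exception being 4 h in the active phase at -0.03. Averaged over the 6 hours, a contrast added after the hourly values had been seen, Plin5 rose by 0.49 ± 0.11 in the rest phase (limma adjusted p = 0.0172) and by 0.48 ± 0.11 in the active phase (adjusted p = 0.0149), where 0.288% and 0.497% of all genes passed. Over both phases the difference was 0.48 ± 0.08 (95% interval 0.33 to 0.64, 1.40-fold, adjusted p = 1.05e-05). Of 68 exercised libraries 56 lay above the sham median of their own hour and 32 above every sham library of that hour. These counts restate the same values and are not a further test. By the first count the next members were Ppara, with 51 and 19, and Acot2, with 49 and 23. The averaged effects of the phases differed by -0.02 (95% interval -0.33 to 0.30, adjusted p = 0.970). This difference passed for 0% of all genes, and 2.27% had an unadjusted p under 0.05.

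The averaged Plin5 difference over both phases passed under 19 of 19 alternative settings, with adjusted p from 3.84e-10 to 0.00268 and differences from 0.42 to 0.58. For single phases it passed under 16 of 20. In the rest phase adjusted p became 0.280, 0.0679, 0.155 and 0.0740 when replicate 1, 3, 4 or 5 was left out of every group, and in the active phase 0.322, 0.0713, 0.0586 and 0.0975 without replicate 1, 2, 4 or 5. With length slope in the model the difference over both phases was again 0.48 (adjusted p = 1.52e-06), and with slow fibre markers 0.48 (adjusted p = 1.12e-05). Summed values of the 7 adipocyte markers were 431 ± 212 (SD, n = 68) in exercised and 446 ± 197 (n = 69) in sham libraries, those of 8 slow fibre markers 816 ± 270 and 808 ± 258, and those of 7 capillary endothelial markers 162 ± 40.8 and 163 ± 37.6. In bulk muscle, more RNA per fibre and a larger share of fibres with that RNA cannot be told apart.

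Among the 33 genes, 1 passed the averaged test over both phases, against 1.19% of all genes, and 9 had an unadjusted p under 0.05, against 9.71%. In the single phases 3 and 8 had such a p, against 4.75% and 9.79%. A difference above 0 over both phases was found for 30, against 52.2% of all genes. Members share the same libraries and vary together, so these are not 30 separate observations. Their median was 0.07, against 0.004 over all genes. By role, the receptors had averaged differences of 0.29 ± 0.09 for Ppara (adjusted p = 0.0848) and 0.12 for Ppard. Of the 4 genes of entry, Slc27a1 (fatty acid transport protein 1) stood at 0.14, Fabp3 at 0.09, Cd36 at 0.06 and Lpl at -0.03. Besides Plin5, the droplet genes gave 0.27 ± 0.10 for Pnpla2 (adipose triglyceride lipase, the first lipase of stored triglyceride; adjusted p = 0.260), 0.05 for Plin2 and 0.03 for Lipe.

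Activation and the carnitine shuttle had 5 measured genes, all above 0 in the average of both phases and none past the test. They ranged from 0.06 for the carnitine-acylcarnitine carrier gene Slc25a20 to 0.21 ± 0.08 for Acsl1, the main long-chain acyl-CoA synthetase of muscle (adjusted p = 0.339). The 9 genes of the oxidation spiral were likewise all above 0, between 0.05 (Hadhb) and 0.16 (Acadvl, very-long-chain acyl-CoA dehydrogenase), and none passed. Of the auxiliary enzymes and thioesterases 4 of 6 were above 0, led by the mitochondrial thioesterase Acot2 at 0.20 ± 0.06 (adjusted p = 0.106). In electron transfer Etfdh stood at 0.16 ± 0.05 (adjusted p = 0.113), with Etfa and Etfb at 0.04 and 0.02. In the rest phase alone every gene of these roles was above 0. The active phase had 4 of 5 above 0 for the shuttle and 7 of 9 for the spiral. It had 2 of 6 for auxiliary enzymes and thioesterases and 1 of 3 for electron transfer. With length slope in the model 7 of 33 genes (21.2%) passed over both phases, against 5.28% of all genes: Acsl1, Cpt2, Etfdh, Acot2, Pnpla2, Plin5 and Ppara, at 0.16 to 0.48.

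**Figure D2:**
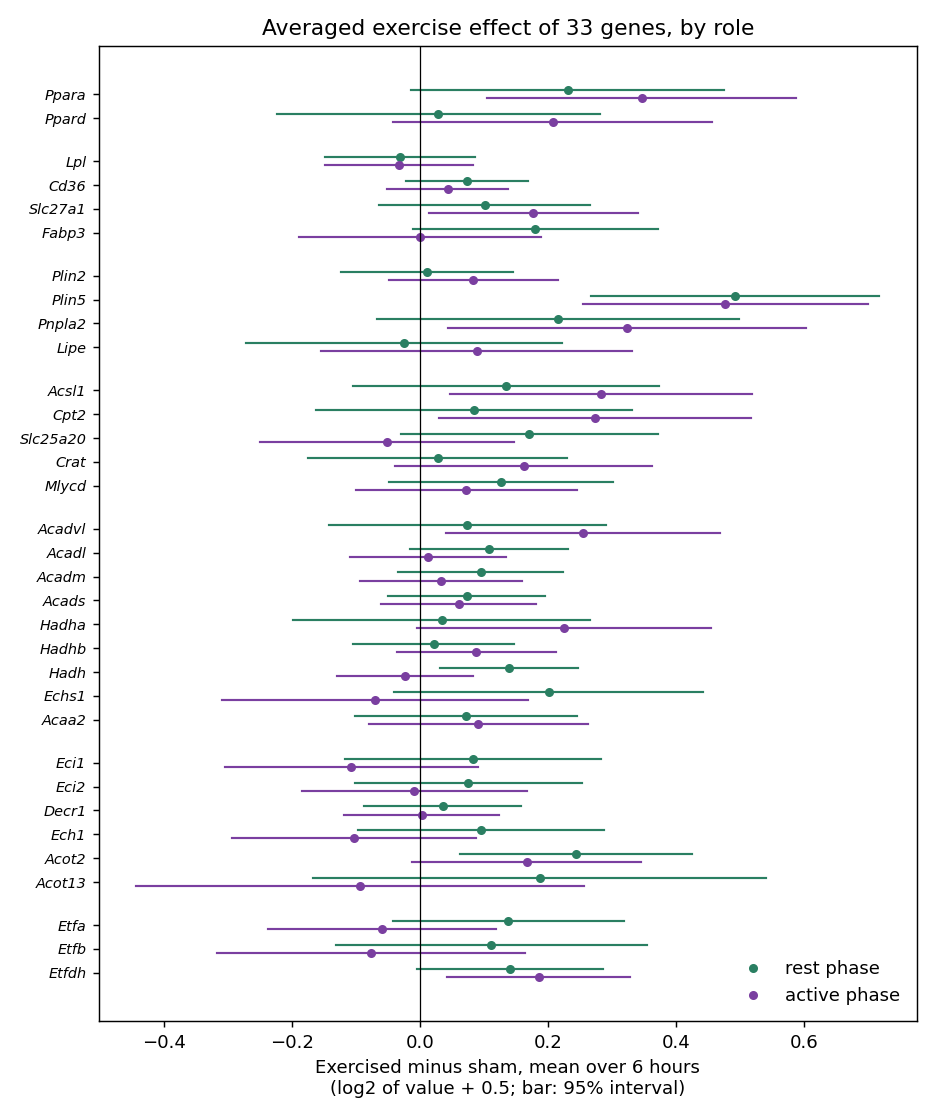
Averaged exercise effect of the 33 genes grouped by role, as the log2 difference (exercised minus sham, mean over 6 hours) with 95% intervals, for the rest phase (green) and the active phase (purple). Plin5 has the largest estimates, at 0.49 and 0.48, and intervals of most other genes include 0. In the active phase its interval (0.25 to 0.70) overlaps those of Ppara (0.10 to 0.59) and Pnpla2 (0.04 to 0.60).

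At 8 h in the rest phase 0 of the 33 genes passed (limma, against 0.00873% of all genes), and 3 had an unadjusted p under 0.05, against 2.13% of all genes. EdgeR and DESeq2 on recovered reads also passed none. These 3 were Plin5, Acot2 and Slc27a1, and Cd36 and Acadl came next. Acot2 had values of 6.80, 7.86, 8.09, 9.48 and 9.51 in sham libraries and ran from 9.80 through 11.0 to 18.3 in exercised libraries. Its groups did not overlap, which was so for 1 of the 33 genes and 0.41% of all genes, and the difference was 0.52 ± 0.23 (adjusted p = 0.9998). Slc27a1 had 26.9, 27.4, 27.9, 30.4 and 37.3 in sham and ran from 29.9 through 41.9 to 48.4 after exercise (0.41 ± 0.21, adjusted p = 0.9998). Of its 6 exercised libraries 4 lay above every sham library.

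Cd36, the main fatty acid translocase of the fibre surface, differed by 0.22 ± 0.12 at that hour, with 159, 208, 231, 232 and 241 in sham and 184 through 257 to 295 after exercise (adjusted p = 0.9998). Acadl, the long-chain acyl-CoA dehydrogenase, differed by 0.28 ± 0.15, with sham values of 59.6, 82.996, 91.9, 92.4 and 98.5 and an exercised range from 73.4 through 115.3 to 122.3 (adjusted p = 0.9998). In both genes 4 of the 6 exercised libraries lay above every sham library and the other 2 lay within the sham range. Of all 33 genes, 27 were above 0 at 8 h in the rest phase (51.8% of all genes), with a median of 0.17 and a range from -0.28 (Acot13) to 0.79 (Plin5).

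At 8 h in the active phase 0 of 33 passed with limma, as did 0% of all genes, and 0 with edgeR or DESeq2 on recovered reads. An unadjusted p under 0.05 was reached by 11 of the 33, all with a difference above 0, and by 24.5% of all genes in either direction (13.2% above and 11.2% below 0). These 11 were Plin5, Etfdh, Acsl1, Ppara, Acot2, Cpt2, Hadha, Pnpla2, Ppard, Acadvl and Cd36. Etfdh, the dehydrogenase that hands electrons from the flavoprotein to ubiquinone, ran from 44.5 through 56.1 to 76.7 in 6 sham libraries and had 57.9, 81.0, 91.1, 96.7 and 100.2 in the exercised ones (0.52 ± 0.18, adjusted p = 0.202). Acsl1 ran from 78.4 through 89.9 to 125.5 in sham and had 83.1, 143.6, 206, 208 and 236 after exercise (0.83 ± 0.30, adjusted p = 0.202). For both genes 4 of the 5 exercised libraries lay above every sham library and the remaining one lay inside the sham range.

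Ppara ran from 2.27 through 4.28 to 6.76 in sham libraries and had 3.92, 6.59, 7.12, 9.19 and 12.8 in exercised ones (0.79 ± 0.31, adjusted p = 0.202). Acot2 ran from 6.59 through 10.2 to 14.2 in sham and had 7.23, 14.1, 14.3, 20.2 and 23.6 after exercise (0.58 ± 0.23, adjusted p = 0.202). Plin2, the general droplet coat protein, was the 1 member whose groups did not overlap at this hour, against 1.22% of all genes: it ran from 15.1 through 16.9 to 17.97 in sham and had 18.4, 19.7, 20.5, 22.0 and 22.5 after exercise (0.28 ± 0.17, adjusted p = 0.246). The lowest differences belonged to Acot13 at -0.67 ± 0.44, Etfb at -0.52 ± 0.30 and Echs1, the short-chain enoyl-CoA hydratase, at -0.51 ± 0.30 (adjusted p = 0.278, 0.235 and 0.240).

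Exercised replicate 6 was the low library for Acsl1 (83.1), Cpt2 (12.3) and Ppara (3.92) and the high one for Etfb (60.7) and Acot13 (288). Without it 9 of 33 members (27.3%) passed at 8 h in the active phase, as did 18.4% of all genes (Acsl1, Cpt2, Hadha, Etfdh, Pnpla2, Lipe, Plin5, Ppara and Ppard, at 0.65 to 1.11), and Plin5 stood at 1.104 (limma adjusted p = 0.0469). At this hour Plin5, Acsl1, Etfdh and Ppara each passed under 3 of 42 alternatives. Leaving out replicate 6 of every group gave 13 members (39.4%), of which Slc25a20, Eci1 and Etfa were below 0, and 28% of all genes. The length slope of this library was -0.19, against 0.12 to 0.38 in the other 4 exercised libraries and -0.20 to 0.02 in the 6 sham libraries.

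The members were spread along that slope, though not in order of their own exon length. Echs1, with 8286 bases, had a negative correlation with it and Pnpla2, with 3020, a positive one. Within groups, over all libraries, a member's correlation with the length slope ran from -0.95 (Etfb) to 0.88 (Acsl1), with 15 genes above 0 and 18 below, and with Ppara (0.86), Pnpla2 (0.83), Hadha (0.83) and Ppard (0.82) at one end and Slc25a20 (-0.93), Echs1 (-0.92) and Etfa (-0.91) at the other. At 8 h in the active phase all 15 genes with a positive correlation had a difference above 0 (median 0.58), and 14 of the 18 with a negative one lay below 0 (median -0.12). Across the 33 genes, which share these libraries, the difference and the correlation had r = 0.925 at 8 h in the active phase and 0.515 in the rest phase; directly after the treadmill it was 0.91 in both. The slope itself was 0.12 ± 0.21 (SD, n = 5) in exercised and -0.08 ± 0.09 (n = 6) in sham libraries at 8 h in the active phase, and -0.03 ± 0.12 (n = 6) and -0.04 ± 0.07 (n = 5) in the rest phase.

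**Figure D3:**
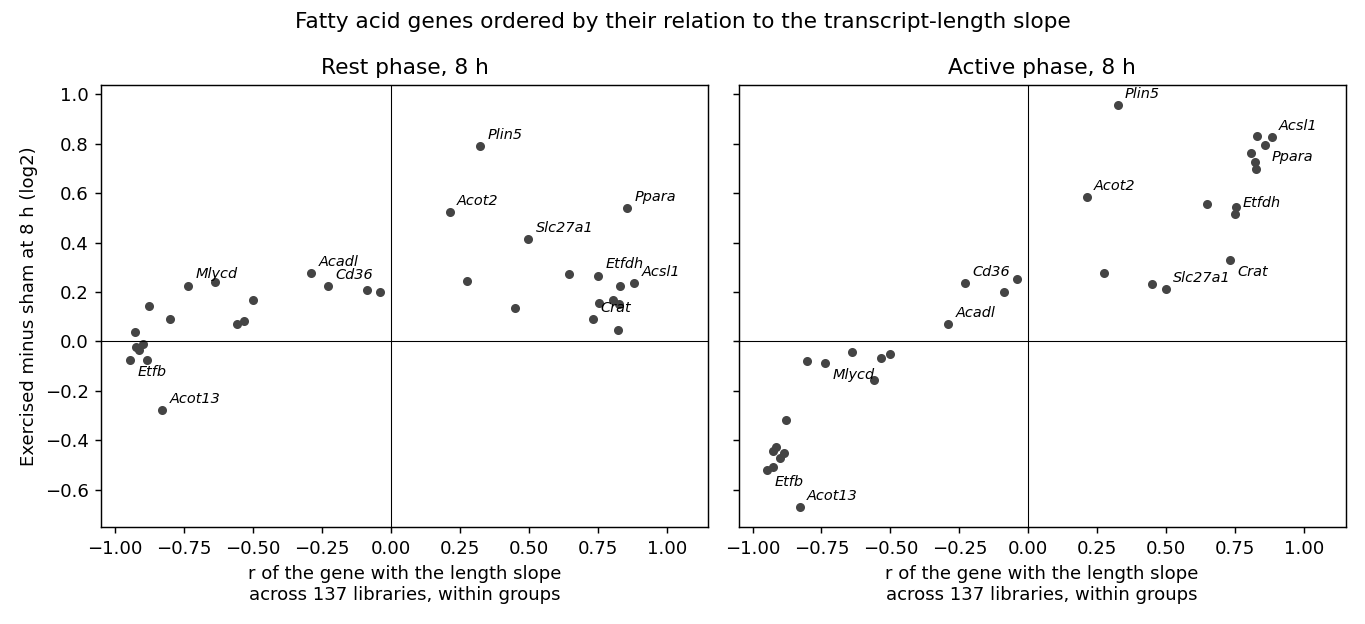
Difference at 8 h (log2, exercised minus sham) of each of the 33 genes against its correlation with the transcript-length slope of the libraries, for the rest phase (left) and the active phase (right). In the active phase the points rise from Acot13 at -0.67 to Acsl1 at 0.83 along the axis (r = 0.925), while Plin5 at 0.96 has a correlation with the slope of only 0.32.

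With length slope in the model, the difference at 8 h in the active phase was 0.28 ± 0.14 for Acsl1, 0.25 ± 0.17 for Ppara and 0.24 ± 0.12 for Etfdh. It was 0.77 ± 0.27 for Plin5 and 0.49 ± 0.22 for Acot2 (adjusted p = 0.999 for all 5). In the rest phase Plin5 stood at 0.78 ± 0.27 (adjusted p = 0.713). Markers of other cell types also differed at 8 h in the active phase, with none past the test. Of 7 capillary endothelial markers 5 had an unadjusted p under 0.05, with a median difference of 0.91, and their summed value was 216 ± 33.5 (SD, n = 5) in exercised and 150 ± 26.9 (n = 6) in sham libraries. In the rest phase that sum was 147 in both groups, with a median difference of 0.03. Of 9 fast fibre markers 6 had such a p in the active phase, with a median difference of 0.62, while their summed value was 80766 ± 13162 in exercised and 90697 ± 19146 in sham libraries. For the 7 adipocyte markers, 3 of them with such a p, the summed value was 375 ± 148 (SD, n = 5) in exercised and 616 ± 231 (n = 6) in sham libraries of the active phase, and 325 ± 85.4 (n = 6) and 398 ± 113.2 (n = 5) in the rest phase. The part of these cell types in the members' differences was not tested.

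Directly after the treadmill, 0 of 33 passed in the rest phase (0.349% of all genes) and 0 in the active phase (1.18% of all genes) with limma. In the active phase the largest differences were those of Ppard, Ppara and Pnpla2. Ppara ran from 2.32 through 4.43 to 6.65 in sham and from 4.81 through 10.7 to 13.4 in exercised libraries of the active phase (1.00 ± 0.29, adjusted p = 0.0605). Ppard ran from 2.05 through 2.65 to 3.28 in sham and from 3.21 through 6.47 to 10.7 after exercise (1.01 ± 0.30, adjusted p = 0.0693). All but the lowest 2 exercised Ppard libraries, which lay just inside the top of the sham range, were above every sham library. DESeq2 passed Ppard, edgeR passed none, and both receptors passed with length slope in the model, at 0.62 and 0.63, as did 1.72% of all genes. Acadvl was the 1 member whose groups did not overlap at this hour, against 2.2% of all genes.

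In the rest phase at 0 h, Pnpla2 had 16.4, 20.0, 21.5, 26.4 and 30.8 in sham and 35.9, 49.9, 51.5 and 52.7 in exercised libraries (1.04 ± 0.39, adjusted p = 0.304), with no overlap. Ppard had 1.49, 1.92, 2.01, 2.30 and 3.23 against 3.33, 4.19, 5.31 and 5.44 (0.92 ± 0.35, adjusted p = 0.304), again with no overlap. Groups did not overlap in 9 of the 33 genes, against 23.8% of all genes. Besides these genes they were Acsl1, Cpt2, Crat, Hadha and Etfdh, higher after exercise, and Eci2 and Etfb, lower in every exercised library. An unadjusted p under 0.05 was reached by 5 members here (Cpt2, Crat, Etfdh, Pnpla2 and Ppard), against 15% of all genes, and by 10 in the active phase, against 21.7%. At this hour too the length slope was higher after exercise, at -0.01 ± 0.03 (SD, n = 4) against -0.18 ± 0.06 (n = 5) in the rest phase and -0.01 ± 0.19 (n = 6) against -0.16 ± 0.08 (n = 6) in the active phase. Fast fibre markers had median differences of 0.61 in the rest phase (3 of 9 with an unadjusted p under 0.05) and 0.73 in the active phase (5 of 9), and slow fibre markers of -0.62 and 0.02 (0 of 8 in each). The summed slow fibre value in the rest phase was 712 ± 175 (SD, n = 4) in exercised and 1013 ± 91.1 (n = 5) in sham libraries, and the summed adipocyte value 468 ± 116.4 and 701 ± 194. None of these markers passed the test, and their part in the members' differences was not tested. When the fit held the 9 rest-phase libraries of this hour alone, 12 members passed (36.4%), near the 31.9% of all genes, among them Fabp3, Eci2, Etfb and Acot13 below 0.

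At 4, 12, 16 and 20 h no member passed in either phase with limma or with edgeR or DESeq2, against 0.0175%, 0.0524%, 0% and 0% of all genes in rest-phase mice and 0.0175%, 0.00873%, 0% and 0% in active-phase mice. An unadjusted p under 0.05 was found for 0, 2, 1 and 1 members at these hours in rest-phase mice (2.93%, 6.04%, 1.68% and 1.79% of all genes) and for 0, 1, 0 and 0 in active-phase mice (6.86%, 3.33%, 0.89% and 0.838%). Such p values belonged to Fabp3 (0.48) and Plin2 (-0.32) at 12 h in the rest phase, where Plin2 ran from 17.5 through 18.4 to 21.6 in sham and from 12.6 through 14.9 to 17.1 in exercised libraries with no overlap (1 member, against 0.183% of all genes), and otherwise for Plin5, at 16 h and 20 h in the rest phase and 12 h in the active phase. In the joint test over the 6 hours, 0 of 33 passed in the rest phase (0.244% of all genes) and 0 in the active phase (0.698%), with Plin5 at adjusted p = 0.269 and 0.0942. An unadjusted p under 0.05 was found for 1 and 9 members (4.03% and 13.2% of all genes). DESeq2 passed Plin5 in the active phase. Without the 6 libraries under 0.9 the active phase gave 7 members (21.2%), against 5.52% of all genes: Acsl1, Cpt2, Acadvl, Pnpla2, Plin5, Ppara and Ppard.

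**Figure D4:**
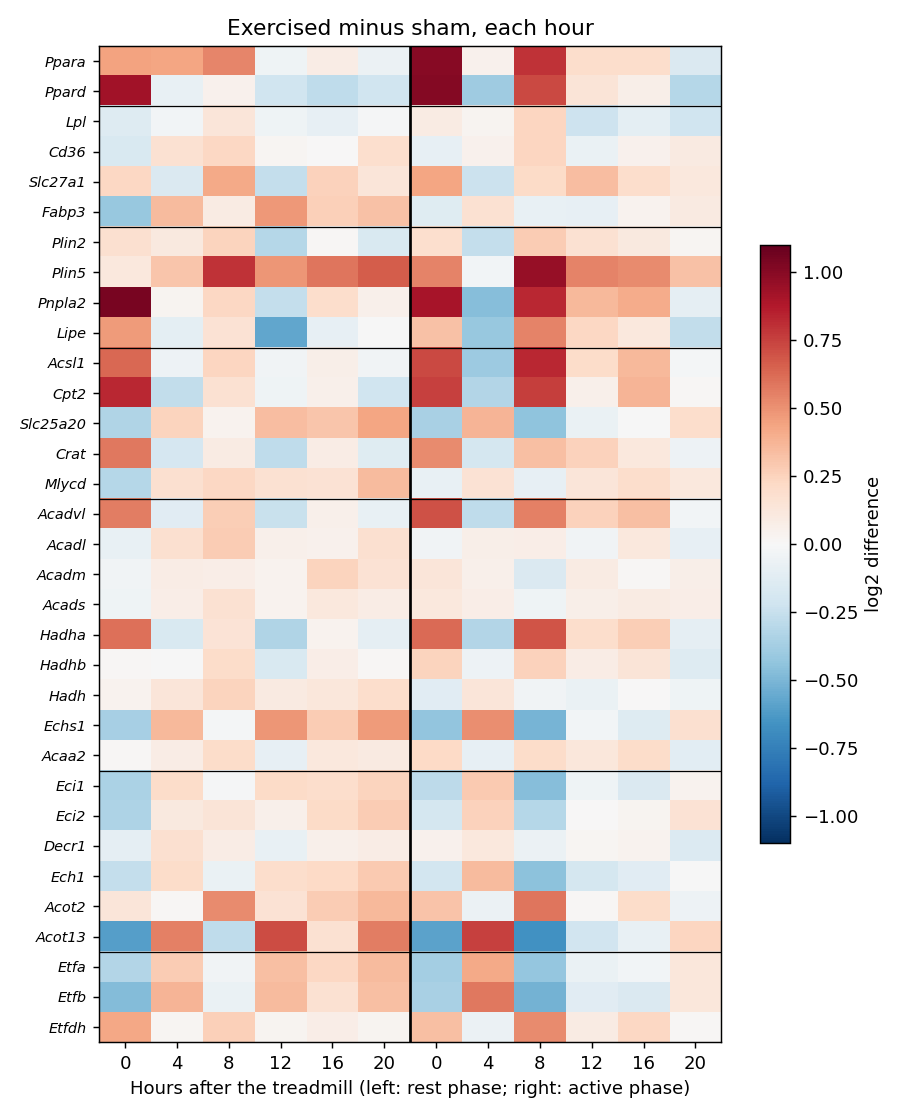
Log2 difference (exercised minus sham) of each of the 33 genes at each of 6 hours after the treadmill, in the rest phase (left columns) and the active phase (right columns), with lines between roles. Plin5 is above 0 in 11 of 12 columns, and genes such as Acsl1 lie above Etfb at 0 h in both phases and at 8 h in the active phase, while at 4 h in the active phase Acsl1 stood at -0.40 and Etfb at 0.58.

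The response of the phases was compared at each hour as an interaction. None of the 33 genes passed at any of the 6 hours by limma, as did 0% of all genes, and an unadjusted p under 0.05 was found for 2 members, both at 12 h, against 5.3% of all genes at that hour. For the remaining hours, in order from 0 to 20 h, the share of all genes was 0.995%, 1.74%, 3.98%, 0.899% and 0.672%. These were Slc27a1 at 0.60 ± 0.28 and Plin2 at 0.49 ± 0.23, active minus rest (adjusted p = 0.694 for both). At 8 h the interaction was largest for Ppard at 0.68 (95% interval -0.21 to 1.56), and that of Plin5 was 0.17 (95% interval -0.62 to 0.95).

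The daily profile was described in sham mice, sampled at 6 clock times in each arm. Within 1 arm, clock time and hours since the sham treadmill cannot be told apart. A rhythm of 24 h period passed for 0 of 33 genes in the rest arm (0.942% of all genes), 0 in the active arm (2.48%) and 0 over both arms (3.94%) with limma, and an unadjusted p under 0.05 was found for 3, 5 and 4 genes (9.57%, 12.6% and 14.5% of all genes). EdgeR passed Hadh in the active arm, and DESeq2 passed Hadh there and Cd36 over both arms. Cd36 had the smallest p over both arms, with an amplitude of 0.12 on the log2 scale and a peak at ZT4.2 (adjusted p = 0.0608). Its mean was 258 ± 23.2 (SD, n = 11) at ZT4 and 220 ± 25.5 (n = 12) at ZT16, with values of single libraries from 218 to 301 at the first and 167 to 256 at the second. In each arm alone the peak fell at ZT4.2 and ZT4.1 with amplitudes of 0.12 and 0.13. Under 8 of 20 alternatives Cd36 passed over both arms, and without replicate 6 its adjusted p was 0.484.

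Lpl, which frees fatty acids from circulating lipoproteins, followed with an amplitude of 0.13 and a peak at ZT6.4 over both arms (adjusted p = 0.149). Its mean was 242 ± 26.5 (n = 11) at ZT4 and 204 ± 27.7 (n = 12) at ZT20, with peaks at ZT4.3 in the rest arm and ZT8.6 in the active arm. Acot2 peaked at ZT6.9 with an amplitude of 0.19 (adjusted p = 0.217), Lipe at ZT6.8 with 0.22 (adjusted p = 0.331), and Acads, the short-chain dehydrogenase, at ZT23.8 with 0.10 (adjusted p = 0.430). With length slope in the model Cd36, Lpl and Lipe passed over both arms, at amplitudes of 0.12, 0.12 and 0.21, as did 13.2% of all genes.

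Fat cells also express Cd36, Lpl and Lipe, and adipocyte markers varied with clock time in the same libraries. Over both arms 4 of 7 measured markers passed the rhythm test (Adipoq, Plin1, Cidec and Cfd). The summed marker value was 584 ± 223 (n = 11) at ZT4 and 317 ± 120 (n = 12) at ZT20. Their part in the profiles of Cd36, Lpl and Lipe was not tested.

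Within single arms other genes had the smallest p. In the rest arm Mlycd, which breaks down malonyl-CoA and so relieves the block on carnitine palmitoyltransferase, had the smallest p, with an amplitude of 0.28 and a peak at ZT5.9 (adjusted p = 0.216). It averaged 112.2 ± 19.4 (n = 5) at ZT4 and 71.1 ± 11.8 (n = 6) at ZT16 in that arm, but 77.9 ± 11.0 (n = 6) and 90.4 ± 24.8 (n = 6) in the active arm, and the arms did not differ past the joint test (adjusted p = 0.162). Ppard (amplitude 0.36, peak at ZT17.8, adjusted p = 0.441), Lpl (adjusted p = 0.475), Acadl (0.15, peak at ZT2.7, adjusted p = 0.525) and Cd36 (adjusted p = 0.567) followed. In the active arm Hadh, the 3-hydroxyacyl-CoA dehydrogenase of medium and short chains, led with an amplitude of 0.19 and a peak at ZT14.6 (adjusted p = 0.101). Plin5 (0.35, peak at ZT5.9, adjusted p = 0.227), Cd36 (adjusted p = 0.321), Lipe (0.33, peak at ZT7.9, adjusted p = 0.363) and Lpl (adjusted p = 0.385) came next.

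At ZT16, directly after the sham treadmill of the active arm, Hadh ran from 128.2 through 147 to 156 in 6 libraries of that arm. In 6 libraries of the rest arm it ran from 88.2 through 94.8 to 116.1. How many of all genes had separate ranges in the sham arms was not counted. At ZT4, directly after the sham treadmill of the rest arm, the order was the other way, at 121.7 ± 4.12 (n = 5) in the rest arm and 104.4 ± 6.76 (n = 6) in the active arm. Tested jointly over 6 clock times, the sham arms differed in 0 of 33 genes with limma, against 0.768% of all genes. Hadh had the smallest adjusted p of the 33, at 0.0811. An unadjusted p under 0.05 was found for 13 of 33, against 24.1% of all genes. Hadh passed with edgeR, and Hadh and Acsl1 passed with DESeq2. A change of rhythm after exercise passed for none of the 33 genes in either phase by limma, as for 0% of all genes, and none had an unadjusted p under 0.05 (1.66% and 1.38% of all genes).

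**Figure D5:**
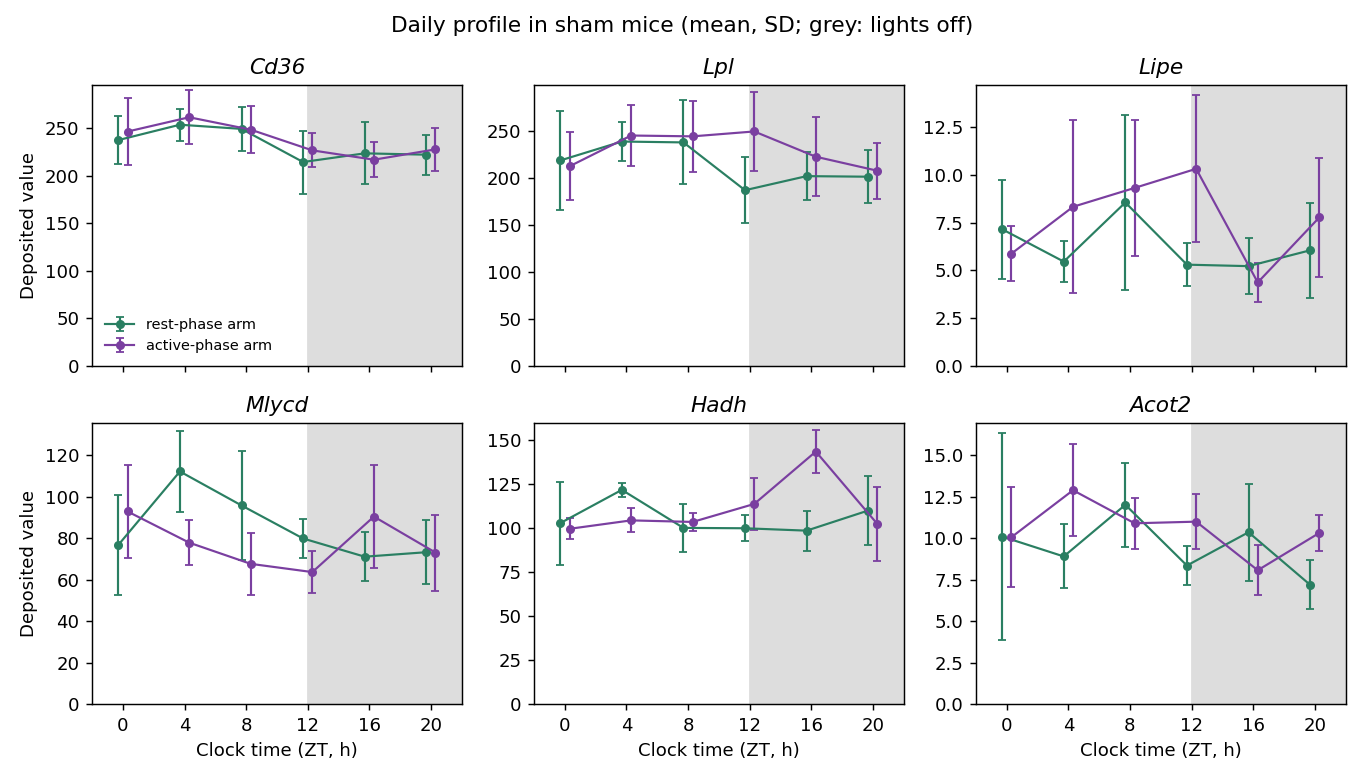
Mean deposited value with SD of 6 genes in sham mice against clock time (ZT, h), for the rest-phase arm (green) and the active-phase arm (purple), with grey over the dark hours. Cd36 is highest near ZT4 in both arms, and Hadh has a mean of 143.5 at ZT16 in the active arm against 98.6 in the rest arm.

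Members also varied together within groups. Of 528 pairs, which share the same libraries and their length slope, Acsl1 and Hadha had the highest correlation of log2 values (r = 0.94), Etfa and Etfb, whose products form 1 flavoprotein, the next (0.93), and Acsl1 and Echs1 the lowest (-0.88). Hadha and Hadhb encode the alpha and beta subunits of the mitochondrial trifunctional protein and start 85 bp apart on opposite strands, so that 228 bases of the printed Hadhb window also belong to the Hadha window. Their correlation was 0.42, at rank 190 of 528, while Hadhb and Acaa2, the last thiolase of the pathway, reached 0.92 at rank 6. The exon length is 8730 bases for Hadha and 6595 for Hadhb, and their correlation with the length slope was 0.83 and -0.04.

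Of 64 other genes of fatty acid handling, chosen by pathway, 60 were measured. At 8 h none passed in either phase. An unadjusted p under 0.05 was found for 6 in the rest phase (2.13% of all genes) and 27 in the active phase (24.5% of all genes). Averaged over both phases 2 rose and none fell, where 1.19% of all genes passed. These were Ppargc1a, a coactivator of PPARs and of mitochondrial biogenesis, by 0.54 ± 0.08 (limma adjusted p = 1.13e-06), and Plin3, another droplet coat protein, by 0.17 ± 0.05 (adjusted p = 0.0391). Ppargc1a was above sham by 0.80 ± 0.29 at 8 h in the rest phase and by 1.39 ± 0.29 in the active phase (adjusted p = 0.0548). Pdk4, a PPAR target that slows glucose oxidation, stood at 1.34 ± 0.37 there (adjusted p = 0.202).

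Some genes of this list passed the rhythm test in sham mice: 4 in each arm (0.942% of all genes in the rest arm and 2.48% in the active arm) and 4 over both arms (3.94%). Angptl4, an inhibitor of lipoprotein lipase, passed over both arms with an amplitude of 0.84 and a peak at ZT2.9 (limma adjusted p = 7.81e-06). Nrip1, a corepressor of nuclear receptors, passed with 0.54 and a peak at ZT12.8, G0s2, an inhibitor of the lipase encoded by Pnpla2, with 0.64 and a peak at ZT19.2, and Acsl3 with 0.22 and a peak at ZT18.3. Ucp3 passed in each arm, with peaks at ZT6.2 in the rest arm and ZT19.6 in the active arm, and Pdk4 likewise at ZT6.5 and ZT21.9. Neither passed over both arms, and a profile within an arm cannot be told apart from time since the sham treadmill. Whether the rhythms of these genes exceed those of the members was not tested.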

How the data were processed

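Stranded, ribosome-depleted total RNA libraries were sequenced as 100 bp paired reads, per the labels' protocols. Tools listed by the submitters' processing notes are STAR 2.5.3a, featureCounts 1.5.2, edgeR 3.2.23, cutadapt 1.16, FastQC 0.11.5 and Trim Galore 0.4.3, with build GRCm38; the strand setting of the counting is not given in the sources used here, so reads of overlapping antisense genes cannot be told apart, nor can reads of Acot2 that also match its near copy Acot1. The authors deposited 1 signal value per gene and library, the read count over a scaled library size in M (mega). In every library 100% of the values were whole multiples of the worth of 1 read (tolerance 0.05 read), which gave the recovered reads; the step of 67 libraries came from the spacing of low values.

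Values were fitted as log2(value + 0.5) with limma 3.58.1 (trend, robust; R 4.3.3) in 1 model of 24 groups, or of 4 series with 24 h cosine and sine terms, with Benjamini-Hochberg adjustment over 11461 genes per contrast and a threshold of 0.05. EdgeR 4.0.16 and DESeq2 1.42.0 on recovered reads were alternatives and called 143 and 187 genes where limma called 136 (average over both phases). Intervals are at 95%. The members, lists and named genes (members that passed, and the 5 of smallest p at 8 h and in each sham rhythm) were chosen with earlier results of these data known. Other alternatives were pseudocounts of 0.1 and 2, a mean value of at least 5, relative log expression scaling, the length slope, replicate strata, slow fibre level, array weights, the contrast's own libraries, a replicate block and leaving out replicates; leaving out libraries under 0.9 and combining slope and strata were added after the data were seen. The fit was also run on simulated reads, drawn independently for each gene and library with no length slope. That run cannot show how calls behave under the slope of these libraries.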

Additional observations from a re-analysis of the deposited data

Results flagged for a closer look

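Of 40 groups of named members tested for a library far from the rest, 1 was marked, where chance gives about 1 in 20. It was Plin5 in sham replicate 6 of the rest phase at 20 h, at 4.69 on the log2(value + 0.5) scale (value 25.3), with the next library at 3.46 (value 10.48). The averaged Plin5 difference without replicate 6 of every group was 0.54 (limma adjusted p = 4.88e-06).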

How the results depend on the processing

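Among 281 signed differences of members that passed under an alternative, 1 had the opposite sign to the value reported: Ppara in the interaction at 20 h was 0.96 with array weights and -0.09 otherwise. Under a mean value of at least 5, Ppard was not tested. Counts of members that passed moved as follows, against 0 where no other count is given. With array weights, beside the share of all genes in the same fit, they were 8 (27.9%) and 24 (54.2%) at 0 and 20 h in rest-phase mice; 13 (30.4%), 8 (27.2%), 18 (44.2%), 2 (4.58%) and 7 (17.7%) at 0, 4, 8, 12 and 16 h in the active phase; 4 (14.8%) and 18 (36.3%) for the interaction at 8 and 20 h; 16 (33.6%), 2 (12.1%) and 10 (28.9%) for the sham rhythm in the rest arm, active arm and both arms; 24 (57.1%) for the sham arms; 28 (54.8%) and 24 (68.8%) in the joint tests of rest and active phase; 5 (5%), 18 (39.6%) and 11 (15.1%), against 1 each, for the average in the rest phase, active phase and both; and 17 (33.2%) for the difference of the averages. The weights were estimated from the same libraries, and the cause of these counts was not tested.

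With length slope in the model the counts were 1 at 4 h in the rest phase (Ppara), 2 at 0 h in the active phase, 1, 1 and 3 for the rhythms (Mlycd, Hadh, and Cd36, Lpl and Lipe), 1 for the sham arms, 2 in the joint test of the rest phase, and 5, 2 and 7 (against 1) for the averages; slope and strata together gave the same except 4 for the rhythm over both arms. DESeq2 gave 1 (1.31%) at 0 h in the active phase, and 1 (2.9%) and 1 (4.72%) for the rhythm in the active arm and both arms. It also gave 2 (3.25%) for the sham arms and 1 (1.04%) in the joint test of the active phase. EdgeR gave 1 (2.36%) for the rhythm in the active arm and 1 (about 1%) for the sham arms. The slow fibre covariate gave 2 (2.03%) at 0 h in the active phase, 1 (4.24%) for the rhythm over both arms and 2 (1.34%) for the average over both phases. Replicate strata gave 1 (1.29%) at 0 h in the active phase, 1 (4.57%) for the rhythm over both arms and 1 (2.09%) for the sham arms. A contrast's own libraries gave 12 (31.9%) and 3 (2.02%) at 0 h in the rest and active phase. Without the 6 libraries under 0.9 there was 1 (1.44%) at 0 h in the active phase and 1 (6.26%) for the rhythm over both arms. The joint test of the active phase then gave 7 (5.52%), and the averages of the active phase and both gave 2 (1.62%) and 4 (1.83%).

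Leaving out 1 replicate number gave, with the share of all genes at the highest count, 0 to 2 (1.55%) at 0 h and 0 to 13 (28%) at 8 h in the active phase. Its joint test gave 0 to 9 (8.16%) and the average over both phases 1 to 3 (1.24%). The averages of single phases gave 0 to 1, and where none passed the share was 0.148% to 0.558%. The rhythm over both arms gave 0 to 1 (3.45%) and the sham arms 0 to 1 (0.401%). Both the 9 and the 13 came from leaving out replicate 6. The replicate block gave 1 for the sham arms (Hadh, 1.62%) and changed no other count. Over 66 pairs of exercised and sham libraries with the same number, phase and hour, the correlation of deviations ran from -0.75 to 0.89 (median 0.141), with 36 over 0.1. Pairs of unlike number were not compared, so whether replicate numbers pair the libraries was not tested. The main fit used no pairing.

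Depth limits Ppard, Ppara and Lipe most, with medians of 44, 58 and 66 reads per library. The SE of Plin5 was 0.28 at 8 h and 0.08 for the average over both phases.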
